A study of Mus musculus with 96 samples.

Results

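At circadian time 20 (CT20), 20 h after the start of subjective day, RNA of back-skin epidermis was sequenced in 4 libraries of each of 4 mouse genotypes that differ in where the circadian clock can run. These 16 libraries, chosen by their labelled time alone, are the subject here, out of 96 libraries that cover 6 times. All donors were female C57BL/6 mice, 8 weeks old, kept in constant darkness for 156 to 176 h, and the labels name 4 mice per group as biological replicates. WT mice carried Arntl wt/wt with K14Cre wt/tg and Syt10-Cre tg/wt. The other genotypes shared an Arntl stopFL/stopFL background, in which a floxed stop cassette blocks the gene until Cre removes it. RERE mice had K14Cre tg/wt and Syt10-Cre tg/wt, and so regain Arntl in brain and epidermis. EpiRE mice had K14Cre tg/wt with Syt10-Cre wt/wt and regain it in epidermis. BRE mice had K14Cre wt/wt with Syt10-Cre tg/wt and regain it in brain, so that their epidermis keeps the stopped gene. K14Cre acts in keratin 14 expressing epithelia beyond skin, and Syt10-Cre acts in the central clock of the hypothalamus and in some other neurons.

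Arntl encodes BMAL1, which pairs with CLOCK or NPAS2 to switch on genes that carry E-boxes, among them Per, Cry, Nr1d1, Nr1d2, Dbp and Ciart. PER and CRY proteins then block BMAL1, and the nuclear receptors REV-ERBα and REV-ERBβ (Nr1d1, Nr1d2) repress Arntl, Npas2 and Cry1, which gives the loop its daily cycle. In epidermis this clock is known to time DNA replication and cell division of keratinocytes. In WT, CT20 lay at the trough of 1 limb of the loop and near the peak of the other. Nr1d1, Nr1d2 and Ciart had their lowest mean of the 6 times at CT20, Cry1 and Clock had their highest, and Arntl, Npas2 and Nfil3 had their second highest.

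Promoters of 4 clock genes are printed as examples of those that hold a clock element next to the start site. RefSeq (GRCm38.p6) gave promoters for 17 of the 20 clock genes listed. The 250 bases before each start were searched on both strands for the E-box CACGTG, for AGGTCA, the half-site bound by REV-ERB receptors, and for the D-box TTATGTAA, bound by DBP, TEF, HLF and NFIL3. Of the 17 genes, 5 held CACGTG, 4 held AGGTCA and 1 held TTATGTAA. Some genes had more than 1 promoter, and a gene was counted if any of them held the motif. Among 32851 promoters of the same length the shares were 6.02%, 14.02% and 0.819%. These shares count promoters and not genes, so they are not on the same unit as the gene counts. Matches are in capitals, and a match shows letters in this window alone. Ciart (chr3:95882229-95882478, minus strand) held 3 E-boxes, Cry1 (chr10:85185055-85185304, minus strand) held 1 E-box, Nr1d2 (chr14:18239107-18239356, minus strand) held 1 AGGTCA and Per3 (chr4:151044666-151044915, minus strand) held 2 D-boxes. Of the 4 printed genes, Nr1d2 and Per3 were called between genotypes in the F test below with 16 libraries, and Ciart and Cry1 were not. Arntl, Npas2 and Nr1d1, which were called in that test, held none of the 3 motifs in this window.
Ciart: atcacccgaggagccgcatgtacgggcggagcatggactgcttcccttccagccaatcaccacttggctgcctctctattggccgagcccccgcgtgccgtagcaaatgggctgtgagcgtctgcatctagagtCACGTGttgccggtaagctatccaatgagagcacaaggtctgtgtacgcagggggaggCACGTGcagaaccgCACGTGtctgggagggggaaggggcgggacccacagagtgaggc
Cry1: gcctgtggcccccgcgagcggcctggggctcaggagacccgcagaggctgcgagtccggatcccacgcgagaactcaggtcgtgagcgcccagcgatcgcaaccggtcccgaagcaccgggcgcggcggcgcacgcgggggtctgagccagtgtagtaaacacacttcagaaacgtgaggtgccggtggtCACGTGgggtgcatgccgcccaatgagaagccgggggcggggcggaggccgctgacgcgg
Nr1d2: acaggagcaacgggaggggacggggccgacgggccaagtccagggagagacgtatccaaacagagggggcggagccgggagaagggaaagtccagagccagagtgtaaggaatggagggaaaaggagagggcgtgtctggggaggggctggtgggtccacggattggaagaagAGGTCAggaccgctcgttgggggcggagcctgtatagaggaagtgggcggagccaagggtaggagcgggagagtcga
Per3: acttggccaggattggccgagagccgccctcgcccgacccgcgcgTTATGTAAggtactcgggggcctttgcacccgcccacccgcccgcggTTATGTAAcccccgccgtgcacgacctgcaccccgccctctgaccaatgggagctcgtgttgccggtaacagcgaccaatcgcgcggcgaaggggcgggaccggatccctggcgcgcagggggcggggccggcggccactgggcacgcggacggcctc

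The tissue matched its label. Krt5 and Krt14, keratins of the basal layer, lay between 12.24 and 12.75 and between 11.01 and 11.72 log2 RPKM (RPKM, reads scaled to gene length and library size, here on the log2 scale), and Krt10 of the suprabasal layers lay between 12.89 and 13.37. The 6 fibroblast markers summed to between 0.397 and 2.77 RPKM in the 16 libraries and the 5 endothelial markers to at most 0.312 RPKM. Lymphocytes and Langerhans cells were present. The 5 T cell genes summed to between 51.6 and 75.9 RPKM in WT, 30.1 and 55.8 in RERE, 51.2 and 67.4 in EpiRE and 57.2 and 113.5 in BRE. The 7 Langerhans and myeloid genes summed to between 111.3 and 238.7 RPKM in WT, 99.8 and 165.7 in RERE, 106.9 and 203.3 in EpiRE and 120.7 and 167.7 in BRE. Totals were 12.05 M to 17.80 M recovered reads per library. In bulk RNA, fewer cells of a type and less RNA per cell cannot be told apart.

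Before any comparison, 2 libraries need to be named. BRE replicate 1 lay outside the range of the other 23 BRE libraries of all times in 10 of 18 clock genes, whereas each of the other 3 CT20 libraries of BRE did so in 1. Its Nr1d1 was 3.21 log2 RPKM against 1.65 to 2.50 in those 23 libraries, its Npas2 was 3.68 against 4.14 to 4.64, and its Arntl was 4.37 against 3.68 to 4.07. EpiRE replicate 1 lay outside the other 23 EpiRE libraries in 5 of 18 clock genes, with Nr1d1 at 3.56 against 4.11 to 6.69 and Cry1 at 4.73 against 3.14 to 4.35. Among the other CT20 libraries, RERE replicate 4 lay outside its 23 partners in 4 clock genes (Clock, Cry1, Nr1d1 and Nr1d2), and no other library outside BRE in more than 2. The Arntl of EpiRE replicate 1, at 4.60, was within the range of 3.64 to 4.90 of the other 23 EpiRE libraries. The root mean square distance over the 18 clock genes from BRE replicate 1 was 0.42 to WT at CT20 and 0.70 to the other 3 BRE libraries. From EpiRE replicate 1 it was 0.50 to WT, 0.33 to RERE and 1.104 to the other 3 EpiRE libraries. Over all 11102 genes tested, the genes in which a library stood apart from its 3 partners were counted. That number was 176 for BRE replicate 1, 149 for EpiRE replicate 1 and between 91 and 221 for the other 14. WT replicate 1, at 221, was above both. By the SD of deviations from the genotype mean over these genes, BRE replicate 1 was the highest library, at 0.240 log2. The rest ran from 0.171 to 0.233. The labels were kept as given. Whether these 2 libraries carry the right genotype and time was not tested, and the EpiRE and BRE values below rest on it. All results below use 16 libraries unless stated, and the values without these 2 libraries, an alternative chosen after seeing the data, are set beside them. For clock genes that alternative is partly fixed by the choice itself, since their values are what set the 2 libraries apart.

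Arntl, the gene that the stop cassette targets (chromosome 7, 113207465 to 113314126 in mm10), was highest in WT and RERE. WT had 4.69, 4.85, 4.71 and 4.72 log2 RPKM and RERE had 4.58, 4.69, 4.62 and 4.70. EpiRE had 4.60, 4.04, 4.06 and 4.11 and BRE had 4.37, 3.86, 3.84 and 3.74. Every BRE library was below every WT and RERE library, and the 4.60 of EpiRE lay within the RERE range. BRE was lower than WT by 0.79 ± 0.13 (difference in log2 RPKM ± SE, n = 4 a side) with adjusted p = 0.0434 by limma's moderated test, and RERE was higher than BRE by 0.70 ± 0.13 (limma adjusted p = 0.0310). The difference of EpiRE from WT was -0.54 ± 0.13 (limma adjusted p = 0.292). RERE differed from WT by -0.09 ± 0.13 (limma adjusted p = 0.834). The sources used here do not say where the cassette lies relative to the counted exons, so the Arntl level is no measure of BMAL1 protein. The 2 calls of Arntl each held in 1 of 8 fits that left out 1 library, the fit without BRE replicate 1.

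Across the 4 genotypes, 31 genes of 11102 tested had an adjusted p under 0.05 in limma's moderated F test (0.279% of genes). Of the 18 clock genes tested, 5 were among them, namely Arntl, Npas2, Nr1d1, Nr1d2 and Per3. The others included Itih5 and Svopl, which were low in RERE, and Arsa, Agpat3, Calcb and Ano1, for which BRE lay apart. Rorb and Bhlhe41 were under the filter of 1 RPKM. Without the 2 libraries the F test called 139 genes (1.25%), all 31 included. Among them were 11 clock genes, with Cry1, Cry2, Ciart, Dbp and Tef among those added. The added clock calls are partly fixed by that choice of libraries. The count depended on each library. It was 205 without BRE replicate 1 and between 2 and 28 without any 1 of the other 15.

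**Figure D1:**
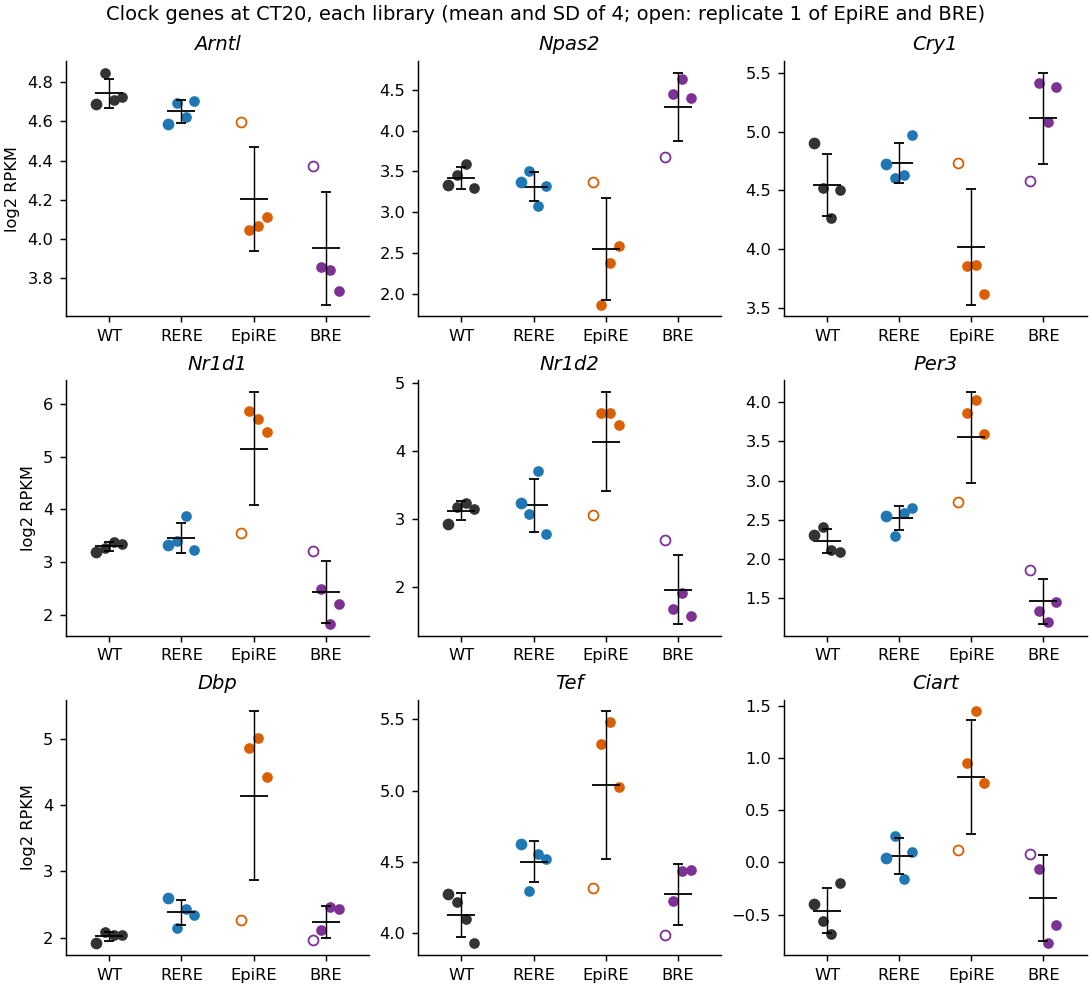
Levels of 9 clock genes at CT20 in log2 RPKM (vertical axes) for the 4 libraries of each genotype (horizontal axes). Points are libraries, bars are the mean and SD of 4, and open points are replicate 1 of EpiRE and of BRE, which lie near the WT and RERE points in most panels (Nr1d1 at 3.56 and 3.21).

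The largest number of clock calls at CT20 was between the 2 genotypes with Arntl regained at 1 site. EpiRE differed from BRE in 31 genes (0.279% of those tested), 16 higher and 15 lower, and 5 of these were clock genes. Nr1d1, Nr1d2 and Per3 were higher in EpiRE, and Npas2 and Cry1 were lower. The part of BMAL1 or REV-ERB regulation in these differences was not tested. Nr1d1 was 3.56, 5.86, 5.72 and 5.47 log2 RPKM in EpiRE and 3.21, 2.50, 1.83 and 2.201 in BRE. The genotypes did not overlap, and the nearest pair of values were those of the 2 libraries named above. The difference was 2.72 ± 0.39 (limma adjusted p = 0.00790). WT at 3.19 to 3.38 and RERE at 3.23 to 3.87 lay between these extremes, apart from the 2 replicates. Nr1d1 was called in 8 of 8 fits that left out 1 library.

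Nr1d2, the second REV-ERB gene, was 3.06, 4.55, 4.57 and 4.38 log2 RPKM in EpiRE and 2.69, 1.68, 1.91 and 1.58 in BRE. All EpiRE values were above all BRE values, by 2.18 ± 0.31 on average (limma adjusted p = 0.00790). Per3, a period repressor, was 2.73, 3.86, 4.02 and 3.59 in EpiRE and 1.87, 1.34, 1.19 and 1.45 in BRE. It had the smallest adjusted p of this comparison, with a difference of 2.09 ± 0.22 (limma adjusted p = 0.000613). Per3 was also higher in RERE than in BRE by 1.06 ± 0.22 (limma adjusted p = 0.0476), with RERE at 2.54, 2.30, 2.58 and 2.65 and no overlap, a call that held in 1 of 8 fits that left out 1 library. WT Per3 was 2.30, 2.41, 2.11 and 2.09.

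Npas2, which can take the place of CLOCK as the partner of BMAL1, ran the other way. It was 3.37, 1.87, 2.38 and 2.59 log2 RPKM in EpiRE and 3.68, 4.45, 4.63 and 4.40 in BRE, and the groups did not overlap. EpiRE minus BRE was -1.74 ± 0.25 (limma adjusted p = 0.00790). WT (3.33, 3.46, 3.59 and 3.29) and RERE (3.37, 3.51, 3.07 and 3.32) stood between EpiRE replicates 2 to 4 and BRE. Cry1, the cryptochrome that peaks late, was 4.73, 3.86, 3.87 and 3.62 in EpiRE and 4.58, 5.41, 5.08 and 5.38 in BRE. Here EpiRE replicate 1 was above BRE replicate 1, so the groups overlapped, and the difference of -1.09 ± 0.22 (limma adjusted p = 0.0478) held in 2 of 8 fits that left out 1 library. Ttc9, chosen for mention after its values were seen, moved as Npas2 did, by -1.44 ± 0.21 (limma adjusted p = 0.00823).

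Dbp, Tef and Hlf are PAR bZIP activators that carry the clock signal to D-box genes, and Nfil3 opposes them. None of the 4 was called in any of the 6 comparisons. Dbp was 2.27, 4.86, 5.02 and 4.43 log2 RPKM in EpiRE, 1.91, 2.08, 2.04 and 2.04 in WT, 2.59, 2.15, 2.43 and 2.35 in RERE and 1.96, 2.11, 2.46 and 2.43 in BRE. Thus 3 EpiRE libraries stood above all 13 others, and the fourth lay within the RERE range. The difference of EpiRE from WT was 2.13 ± 0.41 (limma adjusted p = 0.253) and without the 2 libraries 2.75 (limma adjusted p = 1.5e-07). The second value is partly fixed by leaving out libraries chosen by their clock gene values. Tef was 4.31, 5.32, 5.48 and 5.03 in EpiRE and 4.27, 4.22, 4.10 and 3.93 in WT (0.91 ± 0.19, limma adjusted p = 0.253). Hlf spanned 4.47 to 4.60 in WT and 4.68 to 5.12 in RERE, a difference of 0.38 ± 0.14 (limma adjusted p = 0.315) with no overlap.

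The other clock genes tested showed no called difference with 16 libraries. Clock lay between 3.33 and 3.69 in all 16 libraries. Rora lay between 2.83 and 3.29. Ciart, a repressor of the BMAL1 pair, was 0.12, 0.95, 1.44 and 0.76 in EpiRE and -0.40, -0.56, -0.69 and -0.20 in WT, a difference of 1.28 ± 0.26 (limma adjusted p = 0.253) with no overlap. Mean Ciart was 0.82 in EpiRE, 0.06 in RERE, -0.34 in BRE and -0.46 in WT. The gene thus lay near the filter of 1 RPKM and passed it through its EpiRE values, so its lack of overlap is no support. Cry2 differed between EpiRE and WT by 0.35 ± 0.13 (limma adjusted p = 0.550). Per1, Per2 and Bhlhe40 varied widely inside each genotype. Per2 ran from 0.88 to 2.34 in WT and from 0.95 to 3.05 in BRE.

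**Figure D2:**
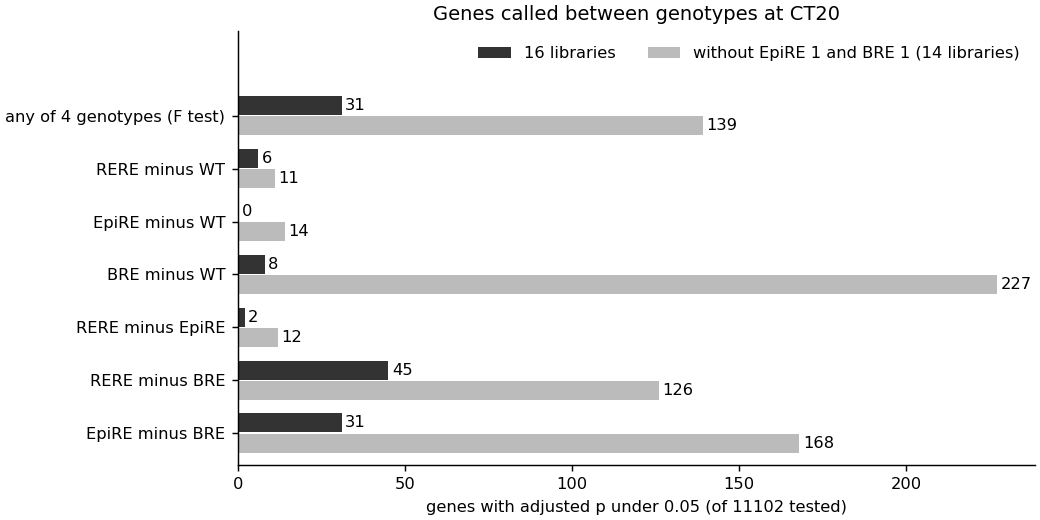
Number of genes with a limma adjusted p under 0.05 (horizontal axis) in the F test over 4 genotypes and in the 6 pairwise comparisons at CT20 (vertical axis). Dark bars are fits of all 16 libraries (from 0 to 45 genes) and pale bars are fits without EpiRE replicate 1 and BRE replicate 1 (from 11 to 227 genes).

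RERE and WT, both with Arntl in brain and epidermis, differed in 6 genes (0.054% of those tested), 2 higher and 4 lower in RERE, and in none of the 18 clock genes. Itih5, a hyaluronan-binding protein of the extracellular matrix (chromosome 2, 10153571 to 10256529 in mm10), was the firmest. It was 3.62, 3.32, 3.47 and 3.51 log2 RPKM in WT and 2.17, 2.37, 2.41 and 2.07 in RERE. All RERE values were below all others of the 16 libraries, since EpiRE had 3.47, 3.11, 3.40 and 3.03 and BRE had 3.22, 2.78, 2.69 and 2.71. RERE was lower than WT by 1.23 ± 0.13 (limma difference -1.23, adjusted p = 0.000702) and than EpiRE by 0.997 ± 0.13 (limma difference -0.997, adjusted p = 0.0106). The first of these was called in 8 of 8 fits that left out 1 library and in all 9 other settings tried.

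Hpgds, the haematopoietic prostaglandin D synthase, was 5.38, 5.53, 5.60 and 5.60 in WT and 4.52, 4.31, 4.73 and 4.31 in RERE. The 2 genotypes were far apart, by -1.05 ± 0.16 (limma adjusted p = 0.0201). Hpgds is known from immune cells, and the T cell and Langerhans sums given above were lower in RERE than in WT in their lowest and highest libraries. Of the T cell genes tested, 1 of 5 had a positive difference of RERE from WT, with a median of -0.51 (all genes 0.002), and 1 of 5 Langerhans and myeloid genes did, with a median of -0.61. None of these genes was called, and the part of these cells in the Hpgds result was not tested. Fam3c, a secreted cytokine-like protein, was 3.95, 3.87, 3.89 and 3.75 in WT and 3.48, 3.37, 3.55 and 3.15 in RERE (-0.48 ± 0.08, limma adjusted p = 0.0450). In the other direction, Cyp2b19, a cytochrome P450 of differentiating keratinocytes, was 3.01, 2.86, 3.02 and 2.66 in WT and 3.50, 3.95, 3.47 and 4.04 in RERE (0.85 ± 0.15, limma adjusted p = 0.0473). Celsr2, a cadherin of planar cell polarity, was higher in RERE by 0.30 ± 0.05 (limma adjusted p = 0.0204). The sixth gene, Svopl, which averaged 1.85 RPKM, was lower by 1.27 ± 0.19 (limma difference -1.27, adjusted p = 0.0201). Apart from Itih5, each of these 6 genes held in 1 to 3 of 8 fits that left out 1 library, and the count of calls ran from 1 (without WT replicate 1, 2 or 4) to 16 (without RERE replicate 3). Without the 2 libraries of the other genotypes, which only changes the spread, it was 11 (0.0991%).

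EpiRE and WT differed in no gene (0% of 11102 tested), with 910 genes at an unadjusted p under 0.05. Limma-voom on recovered reads also called 0. With the spread taken from all 96 libraries 1 gene was called (598 at an unadjusted p under 0.05). Without EpiRE replicate 1 alone there were 12 calls and without the 2 libraries 14 (0.126%), 9 higher and 5 lower in EpiRE. Clock genes among these were Dbp, Per3, Nr1d1, Nr1d2, Tef and Ciart, higher in EpiRE, and Arntl, Npas2 and Cry1, lower. These clock calls are partly fixed by leaving out libraries chosen by their clock gene values, and Ciart lay near the filter. Nr1d1 then differed by 2.39 (limma adjusted p = 4.3e-06) and Arntl by -0.67 (limma adjusted p = 4e-05).

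BRE and WT differed in 8 genes (0.0721% of those tested), 4 higher and 4 lower in BRE, of which Arntl was the single clock gene. With median-of-ratios scaling 10 were called, 7 higher and 3 lower. Arsa, the lysosomal arylsulfatase A, was 3.96, 3.80, 3.86 and 3.91 log2 RPKM in WT and 4.21, 4.26, 4.36 and 4.26 in BRE. It was higher in BRE replicate 1 too, and differed by 0.39 ± 0.06 (limma adjusted p = 0.0434). Arsa was also the gene outside the clock that held in 8 of 8 fits when EpiRE (3.81, 3.94, 3.89 and 3.73) was set against BRE, by -0.43 ± 0.06 (limma adjusted p = 0.00790). Mvd, which decarboxylates mevalonate diphosphate in cholesterol synthesis, was 3.79, 3.75, 3.48 and 3.83 in WT and 4.16, 4.45, 4.13 and 4.29 in BRE (0.55 ± 0.09, limma adjusted p = 0.0434).

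Abhd12b, a hydrolase-family gene, was 2.53, 2.74, 2.80 and 2.22 in WT and 3.23, 4.46, 4.06 and 3.84 in BRE (1.32 ± 0.23, limma adjusted p = 0.0434). Its lowest BRE value was that of replicate 1. Pcf11, a factor of messenger RNA 3' end cleavage, was lower in BRE by 0.53 ± 0.09 (limma difference -0.53, adjusted p = 0.0434), and Wrn, a RecQ DNA helicase, by 0.36 ± 0.06 (limma difference -0.36, adjusted p = 0.0434). Mcam, an adhesion molecule, and Wfdc5 averaged under 5 RPKM and were called lower and higher. Each of the 8 genes held in 1 or 2 of 8 fits that left out 1 library. The count was 264 without BRE replicate 1, and 0 without WT replicate 2, WT replicate 4 or any of BRE replicates 2 to 4 (1209 to 1469 genes at an unadjusted p under 0.05 by limma). Without the 2 libraries it was 227 (2.04%), 90 higher and 137 lower in BRE, with all 8 included. The clock genes Nr1d1, Nr1d2 and Per3 were then lower in BRE and Npas2, Cry1 and Cry2 higher. These clock calls are partly fixed by that choice of libraries.

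**Figure D3:**
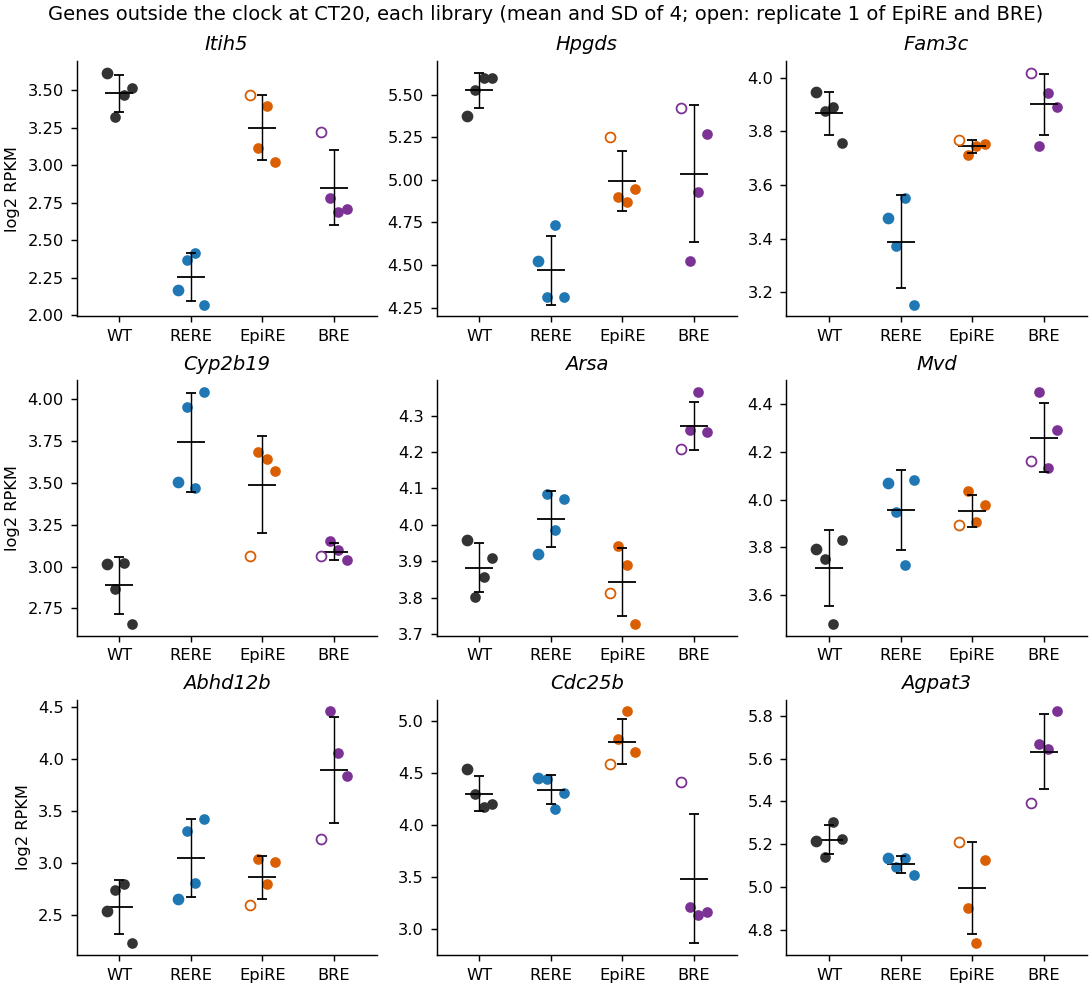
Levels of 9 genes outside the clock at CT20 in log2 RPKM (vertical axes) for the 4 libraries of each genotype (horizontal axes), with the mean and SD of 4. Itih5 is lowest in RERE (2.07 to 2.41) and Arsa highest in BRE (4.21 to 4.36), and the open point of BRE replicate 1 lies with the other genotypes for Cdc25b (4.41).

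RERE and EpiRE, which differ by the brain clock, differed in 2 genes (0.018% of those tested), Itih5 and Svopl, both lower in RERE. Svopl was -0.05, 0.06, -0.24 and -0.03 in RERE and 1.46, 1.37, 1.09 and 0.92 in EpiRE (-1.27 ± 0.19, limma adjusted p = 0.0288). Itih5 held in 5 of 8 fits that left out 1 library and Svopl in 1. No clock gene was called. The count was 4 without EpiRE replicate 1, 0 without RERE replicate 1, RERE replicate 4 or EpiRE replicate 3, and 12 without the 2 libraries (0.108%). Of these 12, 8 were clock genes, a share partly fixed by leaving out libraries chosen by their clock gene values. Arntl, Npas2 and Cry1 were then higher in RERE than in EpiRE, and Nr1d1, Nr1d2, Per3, Dbp and Tef lower, with Dbp at -2.39 (limma adjusted p = 9.86e-07).

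RERE and BRE, which differ by the epidermal clock, differed in 45 genes (0.405% of those tested), 18 higher and 27 lower in RERE, the most of the 6 comparisons with 16 libraries. With median-of-ratios scaling 65 were called, 19 higher and 46 lower. Besides Arntl and Per3, the genes higher in RERE included Glul, glutamine synthetase. It was 5.38, 5.14, 5.60 and 5.66 in RERE and 4.61, 4.74, 4.68 and 4.82 in BRE (0.73 ± 0.12, limma adjusted p = 0.0229). Gabbr1, a subunit of the GABA-B receptor, was 3.31, 3.22, 3.34 and 3.07 in RERE and 2.78, 2.77, 2.75 and 2.52 in BRE (0.53 ± 0.08, limma adjusted p = 0.0146), and held in 7 of 8 fits. Aldh3a1, an aldehyde dehydrogenase, was higher by 1.102 ± 0.23, Mmp2, a gelatinase, by 0.99 ± 0.19 and Rab6b, a small GTPase, by 0.83 ± 0.14, with limma adjusted p of 0.0476, 0.0413 and 0.0229. Aldh3a1 was 6.31 in BRE replicate 1 and 5.65, 4.89 and 5.27 in the other 3 BRE libraries.

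Lower in RERE than in BRE was Calcb, a calcitonin gene-related peptide. It was 3.01, 2.64, 2.30 and 2.29 in RERE and 3.67, 3.93, 4.05 and 3.69 in BRE (-1.28 ± 0.19, limma adjusted p = 0.0146), with WT at 3.56, 3.19, 2.79 and 2.71 in between. Crip1, a LIM-domain protein, differed by -1.27 ± 0.21, Col6a1, a collagen VI chain, by -1.04 ± 0.22, Gpha2, a glycoprotein hormone subunit, by -0.81 ± 0.15 and Cwh43, which remodels GPI anchors, by -0.80 ± 0.16. Their limma adjusted p were 0.0229, 0.0486, 0.0310 and 0.0464. Col6a1 is known from fibroblasts, whose 6 markers summed to at most 1.82 RPKM in RERE and 1.89 in BRE. Krt2, a suprabasal keratin named after its values were seen, was 1.64, 3.04, 3.01 and 2.12 in RERE, 0.94, 0.14, -0.49 and -0.38 in BRE and 0.94 to 1.61 in WT, and was higher in RERE than in BRE by 2.40 ± 0.41 (limma adjusted p = 0.0244). The count of calls ran from 0 (without RERE replicate 3) to 119 (without BRE replicate 1). It was 126 without the 2 libraries (1.13%), with 42 of the 45 included. Nr1d1 and Nr1d2 were then added as higher and Npas2 as lower in RERE, clock calls partly fixed by that choice of libraries. Each of the 45 genes held in 0 to 7 of 8 fits that left out 1 library.

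Outside the clock, EpiRE stood above BRE in Cdc25b, the phosphatase that activates CDK1 at mitotic entry. It was 4.59, 4.83, 5.09 and 4.70 in EpiRE and 4.41, 3.21, 3.13 and 3.16 in BRE, and the difference was 1.32 ± 0.22 (limma adjusted p = 0.0206). WT (4.17 to 4.53) and RERE (4.16 to 4.45) lay with BRE replicate 1. Mmp2, Gpt, an alanine aminotransferase, Aldh4a1, an enzyme of proline breakdown, and Ano1, a chloride channel, were higher in EpiRE by 1.003 ± 0.19, 0.59 ± 0.12, 0.39 ± 0.07 and 0.32 ± 0.05. Agpat3, a lysophospholipid acyltransferase, was 5.21, 4.90, 4.74 and 5.13 in EpiRE and 5.39, 5.67, 5.65 and 5.82 in BRE (-0.64 ± 0.09, limma adjusted p = 0.00823). Macf1, a cytoskeletal linker, was lower by 0.55 ± 0.09 (limma difference -0.55, adjusted p = 0.0212), and Hspb1, a small heat shock protein, by 0.48 ± 0.09 (limma difference -0.48, adjusted p = 0.0365). The receptor gene Mrgprb3 and Xkrx differed by -0.76 ± 0.15 and -0.73 ± 0.15. With median-of-ratios scaling 40 genes were called between EpiRE and BRE, 15 higher and 25 lower. The count ran from 5 (without EpiRE replicate 2) to 487 (without BRE replicate 1), and it was 168 without the 2 libraries (1.51%), with all 31 included. A limma fit of 1 pair of genotypes on its own 8 libraries called 2 genes between RERE and WT and 0 in the other 5 comparisons, with 1002 to 1456 genes at an unadjusted p under 0.05 there.

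**Figure D4:**
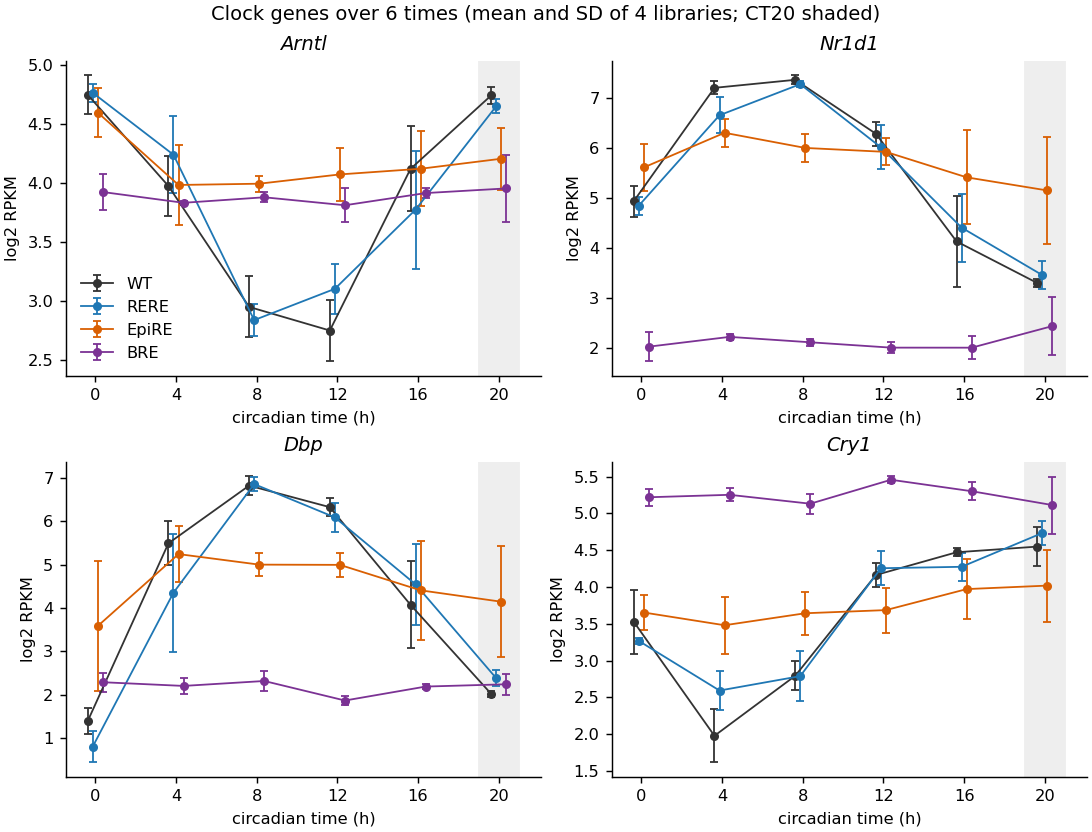
Levels of Arntl, Nr1d1, Dbp and Cry1 in log2 RPKM (vertical axes) over 6 circadian times in h (horizontal axes), as the mean and SD of 4 libraries per genotype. At CT20 (shaded) WT and RERE reach the low end of their Nr1d1 course, and BRE, flat near 2 at the other times, is at 2.43. That BRE mean includes replicate 1 at 3.21, the highest of its 4 libraries.

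To place CT20 among the other times, each genotype's difference from WT at CT20 was set against its mean difference at the other 5 times, in a fit of all 96 libraries with 11028 genes tested. These 3 contrasts share the WT libraries. BRE differed in 19 genes (0.172%), 12 higher and 7 lower, and 8 of these were clock genes. Nr1d1 in BRE was 0.86 below WT at CT20 and 3.92 below at the other times (differences of -0.86 and -3.92), so that the CT20 difference was 3.05 ± 0.34 higher (limma adjusted p = 2.05e-09). Dbp in BRE was 0.22 above WT at CT20 and differed by -2.65 at the other times, a change of 2.87 ± 0.50 (limma adjusted p = 0.000445). Nr1d2 and Ciart changed in the same sense, by 1.68 ± 0.28 and 1.94 ± 0.38, and Per3 by 1.39 ± 0.33. Cry1, 0.56 above WT at CT20 and 1.89 above at the other times, changed by -1.32 ± 0.21 (limma adjusted p = 5.44e-05), Npas2 by -1.33 ± 0.28 and Arntl by -0.95 ± 0.18. The Per3 call was lost in all 8 fits that left out 1 library (limma adjusted p up to 0.234), Npas2 held in 7 of 8, and the other 6 clock genes held in 8. The other 11 of the 19 genes lay outside the clock lists. Of these Leo1, a subunit of the PAF1 transcription elongation complex, held in 8 of 8 fits, with changes from -0.63 to -0.56. In BRE the means of Arntl, Nr1d1, Dbp and Cry1 varied little over the 6 times, and in WT these genes were near 1 end of their range at CT20. Without the 2 libraries 11 genes were called (0.0997%), 9 of them among the 19.

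EpiRE differed in 2 genes (0.0181%). Nr1d1 was 1.85 above WT at CT20 and differed by -0.13 at the other times, a change of 1.99 ± 0.34 (limma adjusted p = 0.00151). Arntl was below WT by 0.54 at CT20 (difference -0.54) and 0.45 above at the other times, a change of -0.98 ± 0.18 (limma adjusted p = 0.00230). Dbp followed at 2.30 ± 0.50 (limma adjusted p = 0.0553). Without the 2 libraries 12 genes were called (0.109%). RERE differed in no gene (0%), with 671 at an unadjusted p under 0.05, and limma called 0 without any 1 of its or the WT libraries, with 441 to 763 at an unadjusted p under 0.05. The gene of smallest p was Vps35, with -0.24 ± 0.06 (limma adjusted p = 0.545).

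**Figure D5:**
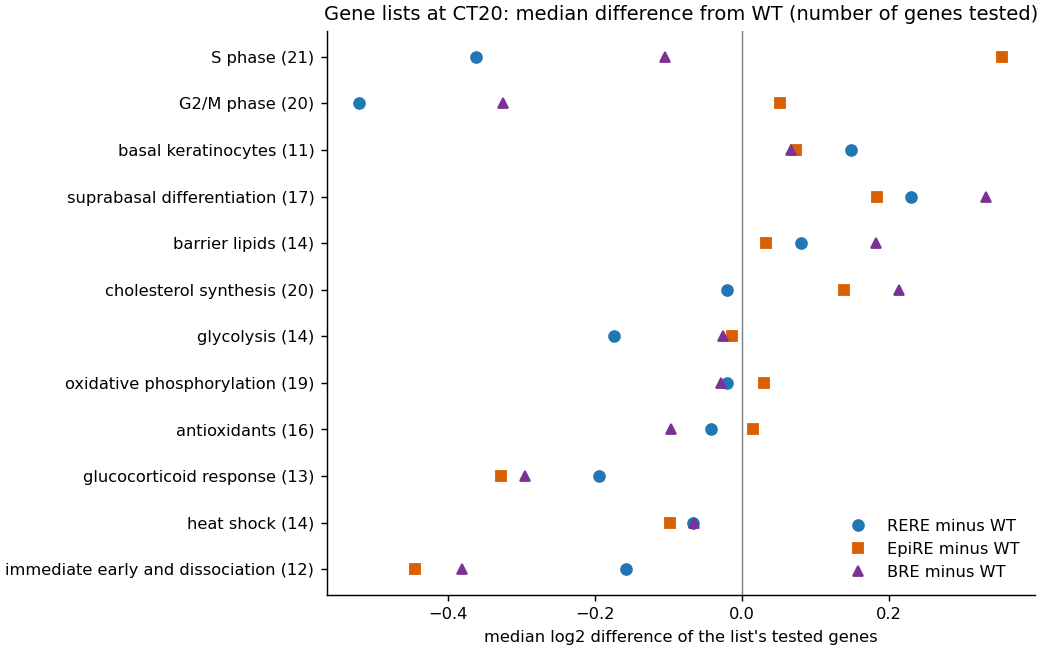
Median log2 difference from WT at CT20 (horizontal axis) of the tested genes of 12 gene lists (vertical axis, number of genes in brackets) in RERE, EpiRE and BRE. The S phase median is -0.36 in RERE and 0.35 in EpiRE, and the G2/M phase median is -0.52 in RERE and -0.33 in BRE.

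The wider programs of epidermis were described by lists of genes. None of the 21 S phase genes was called in any of the 6 comparisons. Their differences shared a sign, but genes of a list measured in the same libraries are not independent observations. The same holds for the lists below, whose counts of positive genes and sums are descriptions and not tests. In EpiRE minus WT all 21 were positive (median 0.35, all genes 0.02), in RERE minus WT none was (median -0.36, all genes 0.002), and in RERE minus EpiRE none was (median -0.69). Mcm3, a subunit of the replicative helicase, was 4.12, 4.11, 4.26 and 4.07 log2 RPKM in EpiRE, 2.63, 3.41, 3.05 and 3.17 in RERE and 4.22, 3.71, 3.27 and 3.17 in WT. EpiRE and RERE did not overlap, and WT reached from one to the other (RERE minus EpiRE -1.08, limma adjusted p = 0.177). The 21 genes summed to between 292.3 and 359.7 RPKM in EpiRE, 190.9 and 252.0 in RERE, 234.5 and 349.6 in WT and 221.1 and 318.1 in BRE.

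Of the 20 G2/M genes none was called. All 20 had a negative difference in RERE minus WT (median -0.52) and in BRE minus WT (median -0.33), and 11 were positive in EpiRE minus WT (median 0.05). The BRE minus WT median without the 2 libraries was -0.55 and that of EpiRE minus WT was -0.01, with none called. BRE replicate 1 had the highest sum of the BRE libraries. Kif11, a spindle motor, was 3.62, 3.45, 3.31 and 3.46 in WT, 2.58, 3.05, 2.53 and 3.35 in RERE and 3.49, 3.05, 2.70 and 1.98 in BRE. The RERE and BRE libraries were spread widely and reached the WT range. The sums ran from 203.4 to 252.3 RPKM in WT, 100.8 to 223.9 in RERE and 112.6 to 257.6 in BRE.

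In the differentiation and lipid lists most differences of BRE from WT were positive. All 17 suprabasal genes tested were positive in BRE minus WT (median 0.33, all genes -0.03) with none called. Their sum was 21148 to 23332 RPKM in BRE against 16824 to 20648 in WT, without overlap. Krt2, a suprabasal keratin outside this list, went the other way, and most of its BRE values given above lay below WT. Its limma differences were 2.40 for RERE minus BRE and 2.17 for EpiRE minus BRE (limma adjusted p = 0.0244 and 0.0437). Hrnr, a cornified-layer protein, was 1.45, 2.34, 1.43 and 1.72 in BRE and 1.06, 0.71, 0.76 and 0.66 in WT (0.94, limma adjusted p = 0.107). In the fit without the 2 libraries Hrnr and Ivl, an envelope protein, were called higher in BRE than in WT, by 1.03 and 0.81 (limma adjusted p = 0.0480 and 0.0404). Of 20 cholesterol synthesis genes 17 were positive in BRE minus WT (median 0.21) and 1, Mvd, was called, where 0.0721% of all genes were. With the 2 libraries left out Fdps and Sqle, squalene epoxidase, were called with it, by 0.42 and 0.36 (limma adjusted p = 0.0274 and 0.0481), where 2.04% of all genes were. Fdps, farnesyl diphosphate synthase, was lower in RERE than in BRE by 0.41 ± 0.08 (limma difference -0.41, adjusted p = 0.0413). The cholesterol list summed to 681.1 to 733.5 RPKM in BRE and 566.1 to 643.3 in WT. Barrier lipid genes were positive in 12 of 14 cases in BRE minus WT (median 0.18), with none called, and without the 2 libraries Cyp4f39, an omega-hydroxylase of ceramide synthesis, was called (0.26, limma adjusted p = 0.0469). Casp14, a protease of cornification, was 5.92, 5.76, 5.47 and 5.55 in RERE and 5.37, 5.29, 5.23 and 5.05 in WT (0.44, limma adjusted p = 0.0967).

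Stress and hormone lists had few calls. All 12 immediate early genes, known also to be induced when tissue is dissociated, had a negative difference in EpiRE minus WT (median -0.44) and in BRE minus WT (median -0.38), with none called. The medians without the 2 libraries were -0.30, with 1 of 12 positive, and -0.28. Fos was 10.86, 11.66, 11.41 and 11.78 in WT and 10.62, 11.13, 11.05 and 11.21 in EpiRE, and the groups overlapped. Of 13 glucocorticoid response genes 1 was called, Glul between RERE and BRE, where 0.405% of all genes were. Of 14 heat shock genes 1 was called, Hspb1 between EpiRE and BRE, where 0.279% of all genes were. In glycolysis (14 genes), oxidative phosphorylation (19), antioxidants (16), nucleotide excision repair (11), unfolded protein response (14), basal keratinocytes (11) and hair follicle (7) no gene was called in any comparison with 16 libraries. With the 2 libraries left out Prdx6, a peroxiredoxin, was called lower in BRE than in WT, RERE and EpiRE, with an EpiRE minus BRE difference of 0.46 (limma adjusted p = 0.00141). The basal genes Lamb3 and Itga3, a laminin chain and an integrin, were then higher in BRE than in WT by 0.49 and 0.43 (limma adjusted p = 0.00444 and 0.0241), Lamb3 was lower in EpiRE than in BRE, and Slc2a1, a glucose transporter, was higher in RERE than in BRE by 0.38 (limma adjusted p = 0.0479).

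Some genes of separate interest in skin did not pass any test at CT20. Cxcl14, a chemokine of keratinocytes, was 8.63, 8.54, 8.66 and 8.72 in WT and 8.54, 8.27, 8.18 and 8.01 in EpiRE (-0.39 ± 0.16, limma adjusted p = 0.576). Aqp3, the water and glycerol channel, differed by 0.41 ± 0.20 between EpiRE and WT (limma adjusted p = 0.615). Sod2, the mitochondrial superoxide dismutase, lay between 3.13 and 3.64 in all 16 libraries. The cold-inducible RNA-binding genes Cirbp and Rbm3 differed between EpiRE and BRE by 0.34 ± 0.25 and 0.50 ± 0.14 (limma adjusted p = 0.514 and 0.141).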

How the data were processed

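Polyadenylated RNA of back-skin epidermis was sequenced with a stranded kit and molecular identifiers, per the labels' protocols; the sources used here do not say whether either was used in counting. The submitters' processing notes name Trimmomatic 0.36, HISAT2 2.2.1, SAMtools 1.3.1, featureCounts 1.6.0, edgeR and mm10. The authors deposited log2 RPKM values, 1 table per genotype, with columns named by time and replicate. Other deposited tables of the authors' rhythm tests held 96 value columns whose codes matched no label and were not used; these codes run in order for WT and RERE and out of order for EpiRE and BRE. The CT20 assignment of a library therefore rests on its column name.

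Genes whose mean over the 16 libraries reached 0 log2 RPKM, or 1 RPKM, were tested with limma 3.58.1 in R 4.3.3 (linear model on log2 RPKM, genotype as factor, 12 residual degrees of freedom, variance trend). The F test has no side, the 6 contrasts are two-sided, and p-values were adjusted by Benjamini-Hochberg over all genes tested, with calls under 0.05. CT20 was set against the other 5 times in a fit of 96 libraries in 24 groups. The fits were also run on simulated reads with the same spread for every gene and no library set apart. That setting differs from these data, so no conclusion on the calls is drawn from it. Whole reads were recovered for 22476 of 22497 genes (99.9%), 99.98% of the values of these lay no more than 0.1 read from an integer, and the reads gave the depths and the limma-voom alternative. Promoters came from RefSeq GRCm38.p6.

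Clock genes were named, apart from results not reported here. Other genes were named where called with a mean of at least 5 RPKM and no overlap, up to 5 a direction. Of the lists described, called genes were named, or for some lists without a call the gene of smallest p. Other lists were examined and are not described. Cxcl14, Aqp3, Sod2, Cirbp and Rbm3 were named as single genes. Svopl, Mcam, Wfdc5, Ttc9, Krt2, Leo1 and genes called within a list only without the 2 libraries fell outside this rule and were named after their values were seen. The gene lists and the members were chosen with earlier results of these data known. Other filters, pseudocounts, scalings, spreads, a replicate block and the removal of libraries were tried as alternatives.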

Additional observations from a re-analysis of the deposited data

Results flagged for a closer look

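In 51 named genes, the 4 libraries of each genotype were examined for 1 library far from the other 3, by a Dixon test at the 95% level that chance passes in about 1 of 20 groups. Of 204 groups of 4, 8 passed, of which 4 belonged to EpiRE replicate 1 and 1 to BRE replicate 1. EpiRE replicate 1 had Arntl at 4.60 log2 RPKM (the other 3 at 4.04 to 4.11), Nr1d1 at 3.56 (5.47 to 5.86), Nr1d2 at 3.06 (4.38 to 4.57) and Rbm3 at 4.83 (5.41 to 5.46). BRE replicate 1 had Cdc25b at 4.41 (3.13 to 3.21). Of the other libraries, WT replicate 4 had Celsr2 at 5.24 (5.32 to 5.33), EpiRE replicate 3 had Mmp2 at 3.24 (the other 3 at 3.54 or above), and BRE replicate 4 had Gabbr1 at 2.52 (2.75 to 2.78).

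Genotype differences that were not the same at CT20 as at the other times, by limma adjusted p under 0.05 on that difference, are given here for clock genes. For EpiRE minus WT the CT20 value exceeded that of the other times by 1.99 for Nr1d1 and was -0.98 relative to it for Arntl. For BRE minus WT the same contrast gave 3.05 for Nr1d1, -1.32 for Cry1, 1.68 for Nr1d2, 2.87 for Dbp, -0.95 for Arntl, 1.94 for Ciart, -1.33 for Npas2 and 1.39 for Per3. The Per3 call was lost in all 8 fits that left out 1 library. The other 11 of the 19 genes called for BRE minus WT are not clock genes.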

How the results depend on the processing

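Counts of called genes moved with most settings, whereas no difference of a called gene changed sign in any setting tried. With no filter on low values limma called 19 genes in the F test, 1 between BRE and WT and 24 between RERE and BRE. With the filter raised to 2 log2 RPKM it called 20 in the F test and 1 between RERE and EpiRE, and with log2(RPKM + 1) also 1 between RERE and EpiRE. With median-of-ratios scaling it called 48 in the F test and 4 for EpiRE minus WT at CT20 against the other times. Without the variance trend it called 3 between RERE and WT, 4 between BRE and WT and 20 between EpiRE and BRE. With the spread from all 96 libraries it called 69 in the F test, 1 between EpiRE and WT, 28 between BRE and WT, 4 between RERE and EpiRE and 61 between EpiRE and BRE. Limma-voom on recovered reads called 87 in the F test, 18 between BRE and WT, 1 between RERE and EpiRE and 54 between EpiRE and BRE. Fits of 2 genotypes alone, with fewer samples, called 2 between RERE and WT and 0 between EpiRE and WT, BRE and WT, RERE and EpiRE, RERE and BRE, and EpiRE and BRE (1002, 1178, 1182, 1212 and 1456 at an unadjusted p under 0.05). The cause of these changes was not tested.

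Leaving out 1 library gave 2 to 205 genes in the F test, 1 to 16 for RERE minus WT, 0 to 12 for EpiRE minus WT, 0 to 264 for BRE minus WT, 0 to 4 for RERE minus EpiRE, 0 to 119 for RERE minus BRE and 5 to 487 for EpiRE minus BRE. For CT20 against the other times it gave 0 for RERE minus WT, 2 to 11 for EpiRE minus WT and 10 to 19 for BRE minus WT. Without EpiRE replicate 1 and BRE replicate 1 together, chosen after seeing the data, the counts in the order above were 139, 11, 14, 227, 12, 126, 168, 0, 12 and 11. Of 92 calls between genotypes, 6 held in every fit that left out 1 library, and 1, Itih5 between RERE and WT, held in all other settings as well.

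Same-numbered libraries came from different mice, and in none of the 6 pairs of genotypes did all 4 deviate together at a correlation over 0.1. Over 24 same-numbered pairs of libraries the correlations ran from -0.18 to 0.30, with 6 over 0.1 and 7 closest to their own number. For EpiRE and BRE replicates 1, 2 and 4 stood at 0.19, 0.17 and 0.18, each closest to its own number, and replicate 3 at 0.0035. A replicate block gave 21 genes in the F test, 9, 0, 7, 3, 45 and 32 in the 6 comparisons, and 0, 2 and 20 for CT20 against the other times. Depth was at least 12.05 M reads. The filter left genes with a mean under 1 RPKM over the 16 libraries untested in the main fits at CT20. The 4 libraries a genotype limit the precision of every difference.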
